A study of Mus musculus with 16 samples.

Results

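Langerhans cells were followed in whole epidermis through 10 genes that cover their identity, their anchoring among keratinocytes and their maturation. These genes are Cd207, Epcam, Cdh1, Ccr7, Cd86, Cd40, Cd83, Id2, Runx3 and Mfge8, and they were chosen by name, as the rows of the deposited count table whose Ensembl identifier carries that symbol. Of 50600 genes in the table, all 10 were found, and all 10 passed the minimum of 10 counts over the 16 libraries. Epidermal cells came from the footpad of female C57/B6J mice kept from 5 wk of age for 3 wk on a purified AIN-93M diet, either as such (labelled SYNTH, here AhR-poor diet, since it holds few ligands of the aryl hydrocarbon receptor) or with 200 ppm indole-3-carbinol, a precursor of such ligands (I3C diet). Each footpad injection was 50 μl of PBS (vehicle), without or with 50 μg papain, a protease allergen, and cells were taken 6 hr later. There were 4 mice for each diet and treatment, and mice on the same diet shared a cage, so that diet and cage cannot be told apart. The cells were the whole epidermal suspension after removal of dead cells, not sorted Langerhans cells.

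Langerhans cells are the antigen-presenting cells of the epidermis. Cd207 encodes langerin, the lectin that builds their Birbeck granules, and E-cadherin (Cdh1) and EpCAM (Epcam) are adhesion proteins they share with the keratinocytes around them. Upon activation these cells loosen their contacts, take up the chemokine receptor CCR7, which follows CCL19 and CCL21 along lymphatic vessels to the draining lymph node, and display CD40, CD83 and CD86 to T cells. Their development depends on TGF-β and on the transcription factors ID2 and RUNX3, and Mfge8 encodes a secreted bridge between phosphatidylserine on dying cells and αv integrins.

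Libraries held 22500821 to 51844375 counts, so that 3 counts correspond to 0.0569 to 0.130 CPM (counts scaled by library size and TMM factors). Keratinocyte markers dominated every library, their summed level lying between 39013 and 63529 CPM, and 0 of 9 were differentially expressed between the diets by the rule given with the first comparison. At an adjusted p under 0.05 alone, 1 was higher and 3 were lower on the AhR-poor diet after papain, and 0 with vehicle. Markers of cells that live mostly in the dermis or blood moved with diet and treatment. Between diets with vehicle, genes differentially expressed and higher on the AhR-poor diet made up 7 of 8 fibroblast, 6 of 6 endothelial, 4 of 8 monocyte and macrophage and 1 of 6 mast cell markers, and 0 in the neutrophil, dermal dendritic cell, T cell and B cell lists. After papain the counts were 7 of 8 fibroblast, 6 of 6 endothelial, 8 of 8 monocyte and macrophage, 5 of 8 neutrophil, 5 of 6 mast cell, 3 of 6 tested dermal dendritic cell, 2 of 8 T cell and 2 of 6 B cell markers. Summed monocyte and macrophage markers were at 1.61 to 3.48 CPM with vehicle and 3.26 to 17.9 with papain on the I3C diet, and at 10.4 to 19.4 and 92.8 to 507 CPM on the AhR-poor diet. Neutrophil markers stood in the same order at 0.861 to 1.95, 44.7 to 74.9, 4.24 to 5.32 and 93.0 to 649 CPM, with Ly6g at 0 in all but the last group. With papain on the I3C diet that sum was mostly Cxcr2, S100a9 and S100a8, which averaged 24.2, 16.9 and 16.6 CPM. Csf3r, Trem1, Mmp8 and Retnlg averaged 0.739, 0.575, 0.108 and 0.0891 CPM there, and 57.8, 52.9, 4.63 and 8.64 CPM with papain on the AhR-poor diet. Endothelial markers were at 0.890 to 3.16, 0.913 to 2.41, 13.7 to 34.1 and 22.0 to 57.3 CPM, and fibroblast markers at 202 to 410, 179 to 335, 311 to 528 and 612 to 992 CPM. The largest term of the fibroblast sum was Postn, which averaged 283, 235, 269 and 334 CPM in that order. Col1a1, of the same list, averaged 1.43, 1.25, 24.4 and 88.9 CPM. Papain against vehicle gave higher calls on the AhR-poor diet for 8 of 8 neutrophil, 8 of 8 monocyte and macrophage, 7 of 8 fibroblast, 3 of 6 mast cell, 1 of 6 endothelial and 1 of 8 T cell markers. On the I3C diet these were 3 neutrophil markers and 1 monocyte and macrophage marker, with 1 fibroblast marker lower. Dermal dendritic cell and B cell markers gave 0 calls with papain on either diet, and of the keratinocyte markers Dsg3, a desmosomal cadherin gene, rose and Krt15, a basal keratin gene, fell on both. The plot of marker lists by library shows these levels, whose part in the results below was not tested.

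**Figure D1:**
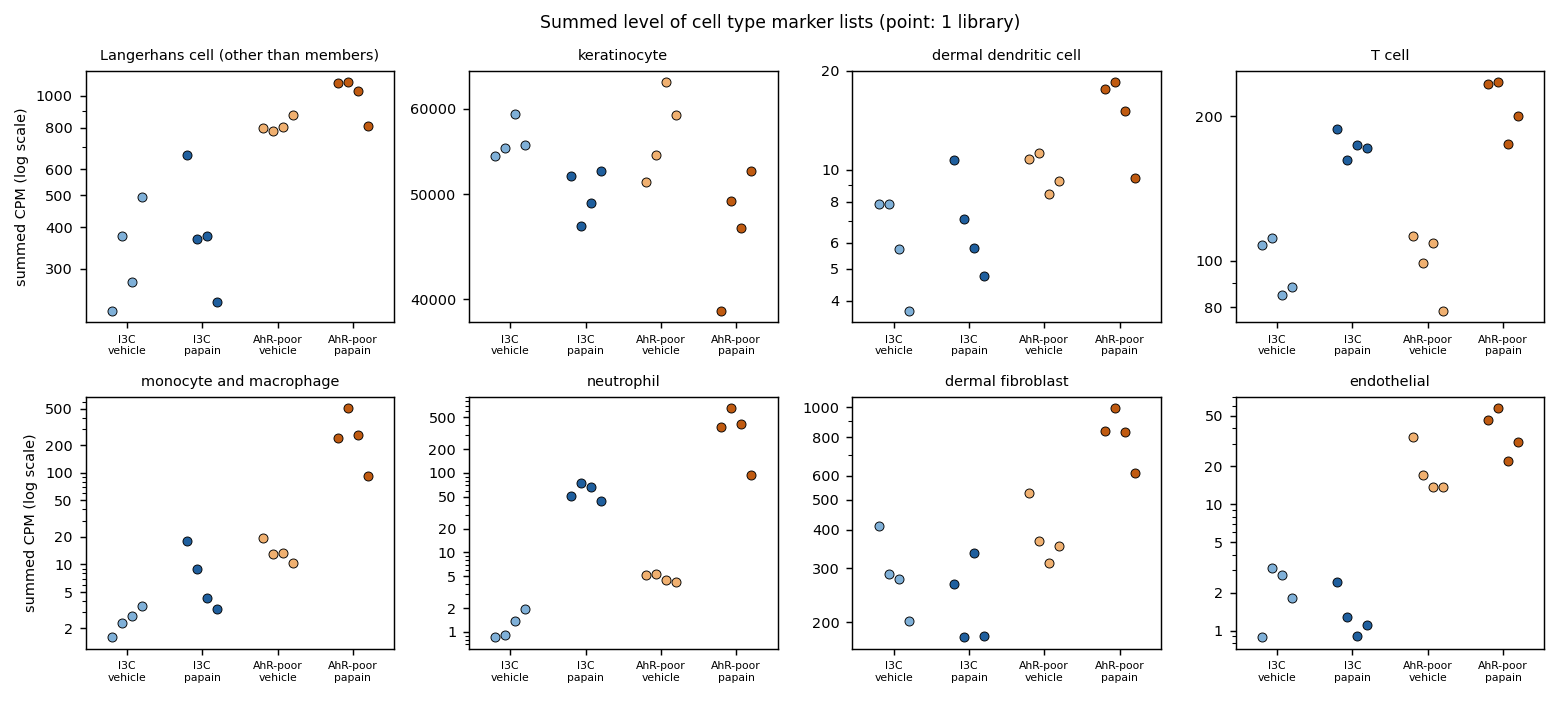
Summed CPM (log scale) of 8 cell type marker lists, 1 point for each library, by diet and treatment. Langerhans cell markers other than the 10 genes sit at 783 to 1100 CPM on the AhR-poor diet and at 224 to 660 CPM on the I3C diet, while neutrophil markers reach 93.0 to 649 CPM on the AhR-poor diet after papain. The largest terms of the T cell and fibroblast sums are Thy1 and Postn. Those of the Langerhans cell sum are Cd74, H2-Aa, H2-Ab1 and H2-Eb1. Those of the neutrophil sum with papain on the I3C diet are Cxcr2, S100a9 and S100a8.

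The 10 genes differed widely in level. Per kilobase of exon, Cdh1 stood first in the 4 groups, at 150 to 188 CPM per kb on average, and Epcam second, at 46.0 to 87.8 CPM per kb. Both adhesion genes are also transcribed by keratinocytes. Cd207, Mfge8 and Id2 took the next 3 places in each group, with Cd207 at 11.8 ± 3.8 CPM per kb (SD, n = 4) on the I3C diet and 36.3 ± 5.6 on the AhR-poor diet with vehicle. On the AhR-poor diet with vehicle, Cd207 and Mfge8 (33.9 ± 3.4 CPM per kb) did not differ beyond their spread. Cd83 stood sixth throughout, and Runx3, Cd86, Ccr7 and Cd40 filled the last 4 places with vehicle at 0.188 to 1.36 CPM per kb. The scarcest gene in a library was Cd40, with 9 counts in T108, an I3C vehicle library. The plot of the 10 genes by library gives all levels on the CPM scale.

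**Figure D2:**
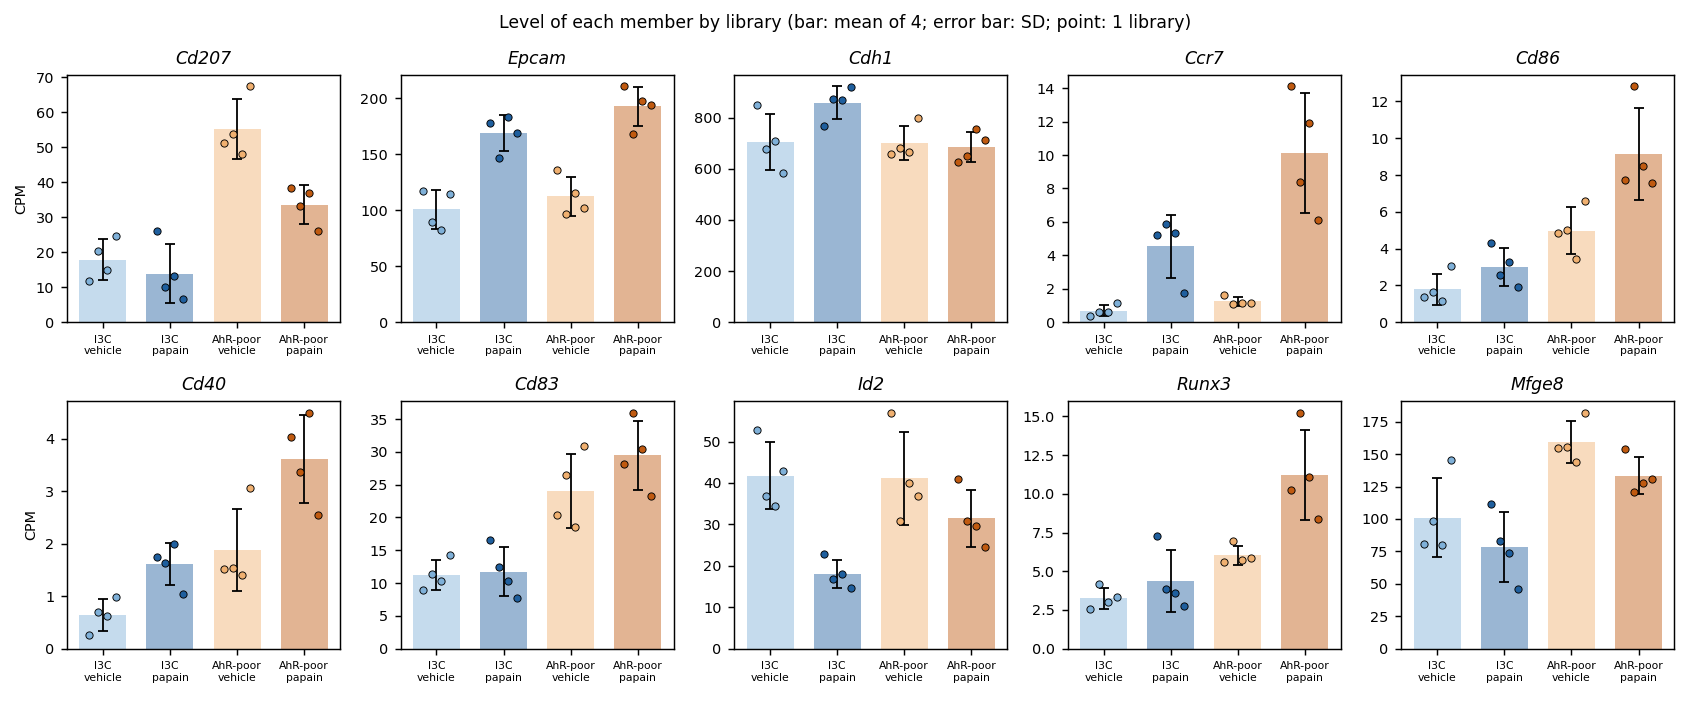
CPM of the 10 genes in 16 libraries, with bars for the mean of 4 libraries, error bars for the SD and points for single libraries. Cd207 sits at 48.0 to 67.5 CPM with vehicle on the AhR-poor diet against 11.8 to 24.7 on the I3C diet, and Ccr7 reaches 1.77 to 14.1 CPM after papain against 0.402 to 1.63 with vehicle.

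To ask whether dietary AhR ligands altered Langerhans cell transcripts in the resting epidermis, the diets were compared with vehicle. A gene was called differentially expressed when its adjusted p fell under 0.01 (edgeR quasi-likelihood test, Benjamini-Hochberg adjustment over 22155 genes) while its log2 fold change passed 1 or -1. Of the 10 genes, 2 were differentially expressed, Cd86 and Cd83, both higher on the AhR-poor diet, where 1.59% of all tested genes were higher by the same rule. At a looser threshold, an adjusted p under 0.05 whatever the fold change, 4 genes were higher, Cd207, Cd86, Cd40 and Cd83, against 2.98% of all tested genes. The median log2 fold change of the 10 genes was 0.86, and -0.01 over all tested genes. In whole epidermis, fewer cells of a type and less RNA per cell cannot be told apart. The paper saw no significant diet effect on Langerhans cell counts, by imaging of ear epidermis or by flow cytometry of footpad epidermis without papain.

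Cd207 (chr6:83671215-83677857, minus strand, GRCm38) had the largest fitted diet difference of the 10 genes with vehicle, close to that of Cd40. Its levels were 11.8, 20.4, 14.8 and 24.7 CPM in the 4 I3C vehicle libraries. In the 4 AhR-poor vehicle libraries they were 51.4, 53.9, 48.0 and 67.5 CPM. The groups did not overlap, the highest I3C library (24.7 CPM) lying well under the lowest AhR-poor library (48.0 CPM). The fold was 3.08 (log2 fold change 1.62 ± 0.34, SE, adjusted p = 0.0174), which passed the looser threshold alone. It passed both thresholds without I3C papain library T106 (adjusted p = 0.00157) or T115 (0.00668), and it passed neither without any 1 of T100, T103, T108, T109 and T110 (adjusted p = 0.0507 to 0.0762). Both were also passed with edgeR's filterByExpr (0.007), among the 8 vehicle libraries alone (0.00155) and in DESeq2 (0.000626). After papain, Cd207 was at 26.0, 10.005, 13.2 and 6.54 CPM on the I3C diet and at 38.4, 33.4, 37.0 and 26.0 CPM on the AhR-poor diet. Library T106 of the I3C papain group was level with the lowest AhR-poor library, T112, both at 26.0 CPM, and lay apart from the other 3 of its own group. The diet difference after papain was 2.41-fold (log2 fold change 1.27 ± 0.34, adjusted p = 0.0185), and without T106 it was 1.77 on the log2 scale (adjusted p = 0.000422), past both thresholds. It passed neither without T104, T113 or T114 (adjusted p = 0.0501, 0.0626 and 0.0553) or in a fit to the 8 papain libraries alone (0.0625). With filterByExpr (0.00891) and in DESeq2 (0.00394) it passed both. In T106, the Langerhans cell list (660 CPM) and the monocyte and macrophage list (17.9 CPM) were also the highest of the I3C papain group.

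Mfge8 (chr7:79133768-79149060, minus strand) had the same order of groups as Cd207. With vehicle its levels were 80.5, 98.2, 80.2 and 145 CPM on the I3C diet and 155, 156, 144 and 182 CPM on the AhR-poor diet. A single I3C library, T111, reached the lower end of the AhR-poor range. The diet difference was 0.66 ± 0.23 on the log2 scale with vehicle (adjusted p = 0.195). After papain, Mfge8 was at 111.6, 83.3, 73.6 and 46.0 CPM on the I3C diet and at 154, 121, 128 and 131 CPM on the AhR-poor diet. These groups did not overlap, and the 1.70-fold difference passed the looser threshold (log2 fold change 0.76 ± 0.23, adjusted p = 0.0297), though not without any 1 of T104, T107, T113, T114 and T115 (0.0587 to 0.0892).

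Langerhans cell markers outside the 10 genes gave the same direction. This list held 14 genes of the leukocyte and antigen-presenting program (among them MHC class II genes, Csf1r, Itgax and Tyrobp), and its median log2 fold change between diets with vehicle was 1.27, with 0 of 14 differentially expressed and 6 higher at the looser threshold. After papain 9 of 14 were differentially expressed and higher on the AhR-poor diet, where 7.15% of all tested genes were, and the median was 1.63. The widest were Tyrobp (log2 fold change 3.81 ± 0.50, adjusted p = 0.000104) and Fcer1g (3.42 ± 0.52, adjusted p = 0.000365), both adaptor genes of many myeloid cells, and the macrophage antigen gene Adgre1 (2.78 ± 0.36). The list summed to 224 to 495 CPM with vehicle and 238 to 660 CPM with papain on the I3C diet. On the AhR-poor diet it summed to 783 to 873 and 811 to 1100 CPM. With papain 5 of 14 were higher on the AhR-poor diet (Fcer1g, Tyrobp and Itgam first, by 2.91 ± 0.51, 2.48 ± 0.46 and 2.24 ± 0.30 on the log2 scale) and 0 of 14 in either direction on the I3C diet. Several of these genes are also expressed by monocytes, macrophages and neutrophils, whose markers moved in the same comparison.

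Start-site sequences are shown for Cd207 and Mfge8, the Langerhans cell genes with the same order of groups, and for Runx3. Id2, the other transcription factor gene among the 10, is not printed, and its sequence held no match. RefSeq (GRCm38.p6) gave windows for 5 of the 10 genes, Cd207, Epcam, Id2, Runx3 and Mfge8. Each run below holds the 250 bases before the start, 5′ to 3′ on the strand of the gene. Capitals mark matches to GCGTG, the core to which AhR binds with its partner ARNT, or to TGTGGT, a core of RUNX sites, which reads ACCACA on the opposite strand. Both strands were searched, the matches did not overlap each other, and an NF-κB consensus, searched by its letters, matched in none of the 3 windows.
Cd207, chr6:83677858-83678107: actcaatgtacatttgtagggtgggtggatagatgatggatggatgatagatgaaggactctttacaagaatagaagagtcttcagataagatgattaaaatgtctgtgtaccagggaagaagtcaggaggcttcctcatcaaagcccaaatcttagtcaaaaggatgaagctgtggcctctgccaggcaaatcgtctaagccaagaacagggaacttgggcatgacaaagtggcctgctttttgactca
Mfge8, chr7:79149061-79149310: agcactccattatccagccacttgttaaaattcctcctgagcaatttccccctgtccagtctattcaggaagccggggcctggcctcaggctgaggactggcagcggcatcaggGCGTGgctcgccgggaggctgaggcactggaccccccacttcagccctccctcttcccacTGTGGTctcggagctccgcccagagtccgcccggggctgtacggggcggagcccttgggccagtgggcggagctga
Runx3, first start, chr4:135120395-135120644: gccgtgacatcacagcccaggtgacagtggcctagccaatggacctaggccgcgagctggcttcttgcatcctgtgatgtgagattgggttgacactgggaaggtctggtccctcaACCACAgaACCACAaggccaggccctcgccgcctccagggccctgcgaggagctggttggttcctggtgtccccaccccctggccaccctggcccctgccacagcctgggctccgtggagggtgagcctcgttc
The Cd207 window held neither core. That of Mfge8 held 1 GCGTG, whose first base lay 136 bases before the start, and 1 TGTGGT, 76 bases before it. In the Runx3 window 2 RUNX cores lay on the opposite strand, 134 and 126 bases before the start. No match was found in the windows of Epcam, of Id2 or of the other Runx3 start. Of 32851 RefSeq windows of this length, 28.2% held GCGTG, 14% TGTGGT and 7.25% the NF-κB consensus on either strand. A match is a run of letters and not a measured binding site, and the upstream end of the Runx3 window overlaps an exon of the antisense gene Gm16225.

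Cd86, Cd83 and Cd40 had their higher levels in mice on the AhR-poor diet, with either treatment. Cd86 (chr16:36603869-36666081), a ligand of CD28 on T cells, was at 1.35, 1.66, 1.17 and 3.03 CPM with vehicle on the I3C diet. AhR-poor libraries held 4.85, 5.003, 3.46 and 6.57 CPM. The groups did not overlap, and the fold was 2.76 (log2 fold change 1.47 ± 0.31, adjusted p = 0.00949). Cd83 (chr13:43784775-43803132), which stabilises MHC class II and CD86 at the surface, was at 8.93, 11.4, 10.4 and 14.2 CPM on the I3C diet and at 20.3, 26.5, 18.6 and 30.9 CPM on the AhR-poor diet. It was 2.14-fold higher (log2 fold change 1.10 ± 0.22, adjusted p = 0.00981), again with no overlap. Both calls lay close to the threshold. That of Cd86 was lost without any 1 of T100, T101, T103, T104, T107, T108, T109, T110, T112, T113 and T114 (adjusted p up to 0.0466). That of Cd83 was lost without any 1 of T100 to T104, T107 to T111, T113 and T114 (up to 0.0502). Cd40 (chr2:165055627-165072948), the receptor for CD40 ligand, was at 0.258, 0.688, 0.626 and 0.991 CPM on the I3C diet and at 1.53, 1.54, 1.41 and 3.06 CPM on the AhR-poor diet. Its 2.93-fold difference passed the looser threshold (log2 fold change 1.55 ± 0.34, adjusted p = 0.0128), both thresholds without I3C vehicle library T111 (0.00977), and neither without AhR-poor vehicle library T103 (log2 fold change 1.20, adjusted p = 0.0650). In DESeq2 it passed both (adjusted p = 0.000394).

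After papain 3 of the 10 genes were differentially expressed between diets, Cd86, Cd83 and Runx3, all higher on the AhR-poor diet, where 7.15% of all tested genes were. At the looser threshold 8 were higher, against 12.3% of all tested genes, and 1, Cdh1, was lower, against 8.36%. The median log2 fold change of the 10 genes was 1.16, and 0.01 over all tested genes. Cd86 was at 4.29, 2.57, 3.28 and 1.89 CPM on the I3C diet and at 7.71, 12.8, 8.48 and 7.59 CPM on the AhR-poor diet after papain. The fold was 3.04 (log2 fold change 1.61 ± 0.29, adjusted p = 0.000809). Cd83 was at 16.5, 12.4, 10.2 and 7.73 CPM and at 28.1, 36.0, 30.5 and 23.3 CPM, a 2.51-fold difference (log2 fold change 1.33 ± 0.22, adjusted p = 0.00051). For both genes the 4 AhR-poor libraries lay above the 4 I3C libraries, and both calls held in 23 of 23 alternatives. Cd40 was at 1.75, 1.64, 1.998 and 1.04 CPM and at 4.04, 3.38, 4.50 and 2.56 CPM (log2 fold change 1.17 ± 0.31, adjusted p = 0.0119), again without overlap, and it passed both thresholds without T103, T108, T111 or T112 (adjusted p = 0.00535 to 0.00848) and neither without T115 (0.0512). Both were also passed among the 8 papain libraries alone (0.00576) and in DESeq2 (0.002). CD40, CD83 and CD86 are borne by other activated antigen-presenting cells as well, and monocyte and macrophage markers were higher by 5.55 on the log2 scale (median of 8) in the same comparison.

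**Figure D3:**
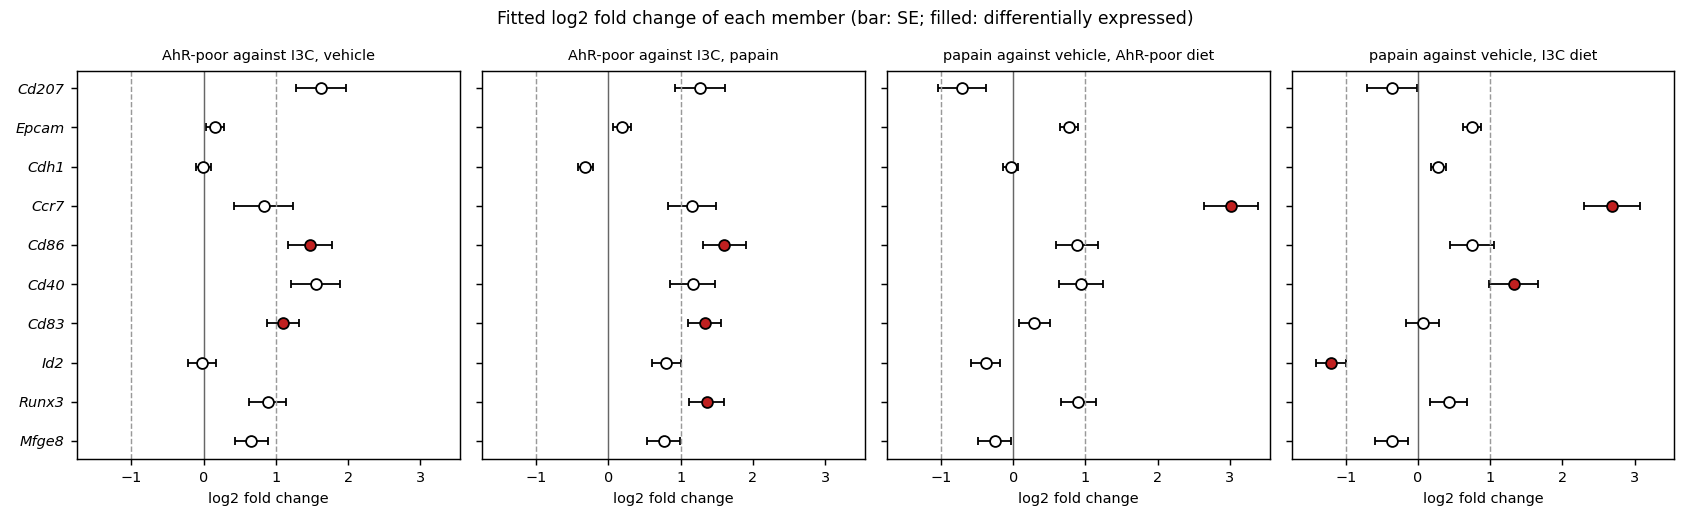
Fitted log2 fold change of the 10 genes in 4 comparisons, with bars for the SE. Filled points were differentially expressed, with dashed lines at 1 and -1; Ccr7 after papain lies farthest from 0 on both diets, at 3.02 and 2.69.

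Genes of dendritic cell maturation outside the 10 were described from a list of 20. Between diets with vehicle 0 of 20 were differentially expressed in either direction, and after papain 10 of 20 were higher on the AhR-poor diet (median log2 fold change 1.06). They included Cd80, the other ligand of CD28 (log2 fold change 2.77 ± 0.38, adjusted p = 3.97e-05), the chemokine gene Ccl17 (2.99 ± 0.50) and Samsn1, an adaptor gene of lymphocytes and myeloid cells (2.90 ± 0.43). At the looser threshold 11 were higher and 1 was lower, Icosl, which encodes the ligand of ICOS and is named here after its values were seen. After papain Icosl averaged 96.0 CPM in I3C libraries and 52.5 CPM in AhR-poor ones (log2 fold change -0.87 ± 0.16, adjusted p = 0.000804), without overlap, and with vehicle the difference was -0.46 ± 0.16 (adjusted p = 0.166). Papain against vehicle gave 11 of 20 higher on the AhR-poor diet, and 4 higher with 1 lower on the I3C diet. Median log2 fold changes were 1.93 and 0.80, or 1.34 and 0.53 with genes at or under 3 counts set to their bound. On the I3C diet the 4 that rose included Fscn1, the actin-bundling fascin of mature dendritic cells (log2 fold change 2.21 ± 0.26, adjusted p = 8.39e-06), and Ccl22, a chemokine gene of mature dendritic cells (2.15 ± 0.46, adjusted p = 0.00219). Socs2, a feedback inhibitor of cytokine signalling, fell by 1.36 on the log2 scale.

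To ask how Langerhans cell genes responded to the allergen, papain was compared with vehicle on each diet. Ccr7 was the only 1 of the 10 genes differentially expressed on the AhR-poor diet, where 6.04% of all tested genes were higher and 2.42% lower. On the I3C diet Ccr7 and Cd40 were higher, against 3.69% of all tested genes, and Id2 was lower, against 5.29%. At the looser threshold 5 genes (Epcam, Ccr7, Cd86, Cd40 and Runx3) rose on the AhR-poor diet, against 17.7%. On the I3C diet 4 were higher (Epcam, Cdh1, Ccr7 and Cd40), against 16.9%, and 1 was lower (Id2), against 18.4%. Median log2 fold changes of the 10 genes were 0.53 on the AhR-poor diet and 0.35 on the I3C diet.

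Ccr7 (chr11:99144196-99155077, minus strand) was low with vehicle, at 14 to 60 counts a library, and rose with papain on both diets. On the I3C diet it was at 0.402, 0.637, 0.598 and 1.17 CPM with vehicle and at 5.19, 5.87, 5.34 and 1.77 CPM with papain. AhR-poor libraries held 1.63, 1.09, 1.14 and 1.13 CPM with vehicle and at 14.1, 8.36, 11.9 and 6.09 CPM with papain. Papain and vehicle libraries did not overlap on either diet, the lowest papain library being T115 of the I3C papain group. The fold was 8.10 on the AhR-poor diet (log2 fold change 3.02 ± 0.37, adjusted p = 1.04e-05) and 6.46 on the I3C diet (2.69 ± 0.39, adjusted p = 3.67e-05), and both calls held in 23 of 23 alternatives. Between diets Ccr7 was 2.23-fold higher on the AhR-poor diet after papain (log2 fold change 1.16 ± 0.34, adjusted p = 0.0215), which passed the looser threshold. Without AhR-poor papain library T112 that difference passed both (adjusted p = 0.00873), and it passed neither without T104 (log2 fold change 0.93, adjusted p = 0.0825) or T107 (0.0593) or among the 8 papain libraries alone (0.0692). In DESeq2 it passed both (adjusted p = 0.00493). With vehicle the diet difference was 0.83 ± 0.41 (adjusted p = 0.424), and the groups overlapped.

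The fitted papain differences of Cd207 had the opposite sign to those of Ccr7. Papain against vehicle gave -0.71 ± 0.33 on the AhR-poor diet (adjusted p = 0.122) and -0.36 ± 0.34 on the I3C diet (adjusted p = 0.467), neither passing a threshold. Without T106 both passed the looser threshold (-0.70, adjusted p = 0.0361, and -0.87, adjusted p = 0.0243), as did the AhR-poor difference among its 8 libraries alone (0.0015). On the AhR-poor diet the 4 papain libraries (26.0 to 38.4 CPM) lay below the 4 vehicle libraries (48.0 to 67.5 CPM), while on the I3C diet the ranges overlapped. Ccr7 counts were therefore set against Cd207 counts within each library, which needs no scaling between libraries. The libraries do not show which cells held the Ccr7 counts, so the ratio is not a level per Langerhans cell. With vehicle there were 3.41, 3.13, 4.04 and 4.73 Ccr7 counts for each 100 of Cd207 on the I3C diet and 3.18, 2.01, 2.37 and 1.67 on the AhR-poor diet. With papain there were 19.98, 58.7, 40.3 and 27.0 on the I3C diet and 36.8, 25.1, 32.2 and 23.4 on the AhR-poor diet. The ratio was 12.9-fold higher with papain on the AhR-poor diet and 8.89-fold higher on the I3C diet (two-sided exact permutation test, p = 0.0286 each, the smallest that 4 against 4 allows, and adjusted p = 0.0571 over the 4 ratio comparisons). With the Langerhans cell list as denominator the ratio was 4.29-fold higher on the AhR-poor diet and 5.84-fold higher on the I3C diet, so that the order of the diets turned. That list holds genes that themselves rose with papain on the AhR-poor diet, Fcer1g, Tyrobp and Itgam among them. From the I3C to the AhR-poor diet the mean log2 ratio to Cd207 differed by -0.75 with vehicle (exact permutation p = 0.0571, adjusted p = 0.0762) and by -0.22 after papain (exact permutation p = 0.6, adjusted p = 0.6). With the list as denominator these differences were -0.27 and -0.72 (exact permutation test, adjusted p = 0.2 each). None of the 4 ratio comparisons, papain against vehicle included, reached an adjusted p under 0.05. The plot of Ccr7 against Cd207 shows both diets moving up in Ccr7 from different Cd207 levels.

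**Figure D4:**
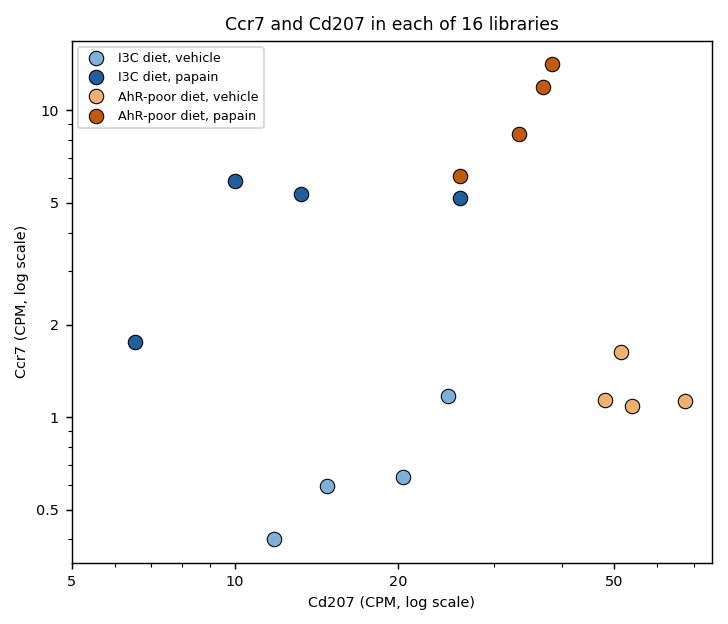
CPM of Ccr7 against CPM of Cd207, both on log scales, with 1 point for each of 16 libraries. Vehicle libraries lie at 0.402 to 1.63 CPM of Ccr7 and papain libraries at 1.77 to 14.1 CPM, and within each treatment the AhR-poor libraries lie toward higher Cd207.

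Fitted papain differences of the other maturation genes were smaller than those of Ccr7. Cd40 rose 2.50-fold on the I3C diet (log2 fold change 1.32 ± 0.34, adjusted p = 0.00496), from 0.258 to 0.991 CPM with vehicle to 1.04 to 1.998 CPM with papain. That call was lost without T106, T108, T109, T110, T113 or T114, with an adjusted p up to 0.0203. On the AhR-poor diet the log2 fold change of Cd40 was 0.94 ± 0.31 (adjusted p = 0.0246), and 1.29 without AhR-poor vehicle library T103 (adjusted p = 0.00424), past both thresholds. It passed neither without T100, T101, T102, T104 or T107 (adjusted p = 0.0597 to 0.0758). For Cd86 papain gave 0.88 ± 0.29 on the AhR-poor diet (adjusted p = 0.0239) and 0.74 ± 0.31 on the I3C diet (0.0708), the latter 1.12 without I3C vehicle library T111 (0.00599), past both thresholds. The AhR-poor difference of Cd86 passed neither without T100, T101, T102 or T105 (adjusted p = 0.0508 to 0.0885). Cd83 was at 0.29 ± 0.22 and 0.06 ± 0.22 (adjusted p = 0.336 and 0.866), with overlapping groups on both diets. Mfge8 was at -0.25 ± 0.23 and -0.36 ± 0.23 (adjusted p = 0.44 and 0.252), again with overlap.

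Chemokines, receptors and proteases of the exit route were described from 17 genes, of which 16 could be tested. Between diets with vehicle 1 was higher on the AhR-poor diet, Ccl21a, the lymphatic ligand of CCR7 (0.693 against 13.4 CPM on average, log2 fold change 4.25 ± 0.80, adjusted p = 0.0083), and after papain 7 were. Ccl21a comes from lymphatic endothelium, and endothelial markers moved in both diet comparisons. Ccl19, the other ligand and the gene that could not be tested, was at 0 in all vehicle libraries. Papain against vehicle gave 9 of 16 higher on the AhR-poor diet, and 5 higher with 1 lower on the I3C diet. The widest on both diets was Il1b, a cytokine gene known to mobilise Langerhans cells and also strongly made by neutrophils and monocytes (log2 fold change 6.50 ± 0.74 and 4.04 ± 0.93). Mmp3, a matrix protease gene, also rose on both (3.37 ± 0.37 and 1.98 ± 0.35), Mmp9 was among those that rose on the I3C diet (2.62 ± 0.46), and Mmp2 fell there by 1.36.

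Neither adhesion gene fell with papain at either threshold. Epcam (chr17:87635979-87651129) was at 117, 89.4, 82.7 and 114.5 CPM with vehicle and 178, 147, 184 and 170 CPM with papain on the I3C diet. AhR-poor libraries held 136, 97.0, 116 and 101.8 CPM with vehicle and 211, 168, 198 and 194 CPM with papain. On each diet every papain library exceeded every vehicle library. The fold was 1.71 on the AhR-poor diet (log2 fold change 0.77 ± 0.12, adjusted p = 8.04e-05) and 1.68 on the I3C diet (0.75 ± 0.12, adjusted p = 9.04e-05), small in error but short of the log2 fold change of 1. Between diets Epcam differed by 0.16 ± 0.12 with vehicle and 0.19 ± 0.12 after papain (adjusted p = 0.682 and 0.323).

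Cdh1 (chr8:106603351-106670246) had group means between 686 and 858 CPM. On the I3C diet it was at 849, 677, 709 and 584 CPM with vehicle and 767, 874, 870 and 921 CPM with papain. AhR-poor libraries held 659, 682, 668 and 801 CPM with vehicle and 625, 649, 755 and 715 CPM with papain. Papain gave a log2 fold change of 0.28 ± 0.10 on the I3C diet (adjusted p = 0.0381, groups overlapping) and -0.03 ± 0.10 on the AhR-poor diet (adjusted p = 0.838), the latter changing sign with the library left out. After papain Cdh1 was 1.25-fold lower on the AhR-poor diet (log2 fold change -0.32 ± 0.10, adjusted p = 0.0312), with no overlap between the groups. With vehicle the diets differed by -0.01 ± 0.10, a sign that also turned with the scaling. Both looser passes of Cdh1 were lost with a library left out, the papain difference without T109, T110, T111, T113, T114 or T115 (adjusted p = 0.0629 to 0.106) and the diet difference without T104, T105, T113, T114 or T115 (0.0566 to 0.0967).

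Of 18 partners of adhesion and retention, 0 were differentially expressed between diets with vehicle, and 1, Tgfb3, after papain. At the looser threshold 0 differed with vehicle. After papain 3 were higher on the AhR-poor diet and 4 lower, against 12.3% and 8.36% of all tested genes. Of these 3, Itgb8 and Tgfb1 are named after their values were seen. Itgb8, an integrin subunit gene, differed by 0.75 ± 0.21 with vehicle (adjusted p = 0.0616) and by 0.71 ± 0.21 after papain (0.0219). Tgfb1 differed by 0.72 ± 0.12 after papain (0.000165). Csf1 and Il34, whose products both bind the CSF1 receptor on which Langerhans cells depend, moved in opposite directions with papain. Csf1 was at 20.3 CPM on average with vehicle and 67.2 with papain on the I3C diet (log2 fold change 1.72 ± 0.13, adjusted p = 1.4e-08), and at 22.5 and 83.6 on the AhR-poor diet (1.89 ± 0.13, adjusted p = 1.17e-08). Il34, the ligand made by keratinocytes, went from 146 to 40.8 CPM on the I3C diet (-1.83 ± 0.16, adjusted p = 1.22e-07) and from 142 to 40.6 CPM on the AhR-poor diet (-1.803 ± 0.15, adjusted p = 3.04e-07). For both genes the vehicle and papain libraries did not overlap on either diet. Tgfb3, a TGF-β ligand gene, fell by 2.07 on the log2 scale on the I3C diet (adjusted p = 4.11e-05) and after papain was higher in AhR-poor than in I3C libraries, by 1.49 ± 0.31 (adjusted p = 0.00226). Itgb6, a subunit of an integrin that activates TGF-β, rose on the I3C diet (1.17 ± 0.31, adjusted p = 0.00848), where its vehicle and papain libraries overlapped.

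Of 8 genes of the cadherin switch, that is other cadherins, vimentin and factors that repress Cdh1, 0 were differentially expressed between diets with vehicle. After papain 5 had higher levels in AhR-poor libraries, among them Twist1 (log2 fold change 4.27 ± 0.41), Snai1 (3.07 ± 0.41) and Vim (2.53 ± 0.35). Median log2 fold changes between diets were 1.30 with vehicle and 2.19 after papain, or 0.50 and 1.96 with genes at or under 3 counts set to their bound. Papain against vehicle gave 4 higher on the AhR-poor diet, led by Twist1 (2.15 ± 0.34), and 2 on the I3C diet, the repressor gene Zeb1 (1.21 ± 0.25) and Cdh3, the P-cadherin gene of basal keratinocytes (1.15 ± 0.12). Twist1 and Vim are expressed by dermal fibroblasts, whose markers moved in the same comparisons. Of 4 genes for Mfge8 receptors and their relatives, 1, the integrin gene Itgb3, was differentially expressed, higher by 3.29 ± 0.34 on the AhR-poor diet after papain and by 1.68 ± 0.30 with papain on that diet.

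The transcription factor genes Id2 and Runx3 moved differently. Id2 (chr12:25093799-25097140, minus strand), an inhibitor of E proteins, was at 52.8, 36.9, 34.5 and 42.9 CPM with vehicle and 22.7, 16.8, 18.1 and 14.6 CPM with papain on the I3C diet. It was 2.31-fold lower with papain there (log2 fold change -1.21 ± 0.20, adjusted p = 0.000225), without overlap, and the call held in 23 of 23 alternatives. AhR-poor libraries held 57.0, 30.8, 39.9 and 36.7 CPM with vehicle and 41.0, 30.8, 29.6 and 24.6 CPM with papain. These ranges overlapped (log2 fold change -0.38 ± 0.20, adjusted p = 0.163). After papain Id2 was 1.74-fold higher on the AhR-poor diet (0.80 ± 0.20, adjusted p = 0.0111), again without overlap. The difference between the papain responses on the 2 diets was 0.82 ± 0.28 on the log2 scale (adjusted p = 0.244) and did not pass a threshold.

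The other inhibitor genes of this family also fell with papain on the I3C diet. Of 17 transcription factor partners and relatives, Id1 (log2 fold change -1.29 ± 0.16), Id4 (-1.18 ± 0.18) and Id3 (-1.08 ± 0.20) were lower and Spi1, which encodes PU.1 (1.23 ± 0.25), was higher there. Id1 averaged 258 CPM with vehicle and 105.3 CPM with papain on the I3C diet. On the AhR-poor diet, comparisons chosen after their values were seen, Id1 averaged 233 and 123 CPM (-0.92 ± 0.16, adjusted p = 0.00024), Id3 249 and 160 CPM (-0.64 ± 0.20, adjusted p = 0.0222) and Id4 gave a smaller difference (-0.51 ± 0.18, adjusted p = 0.0327). These 3 passed the looser threshold on that diet, and Id2 did not. Keratinocytes express the Id genes too, and the libraries do not separate the sources.

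**Figure D5:**
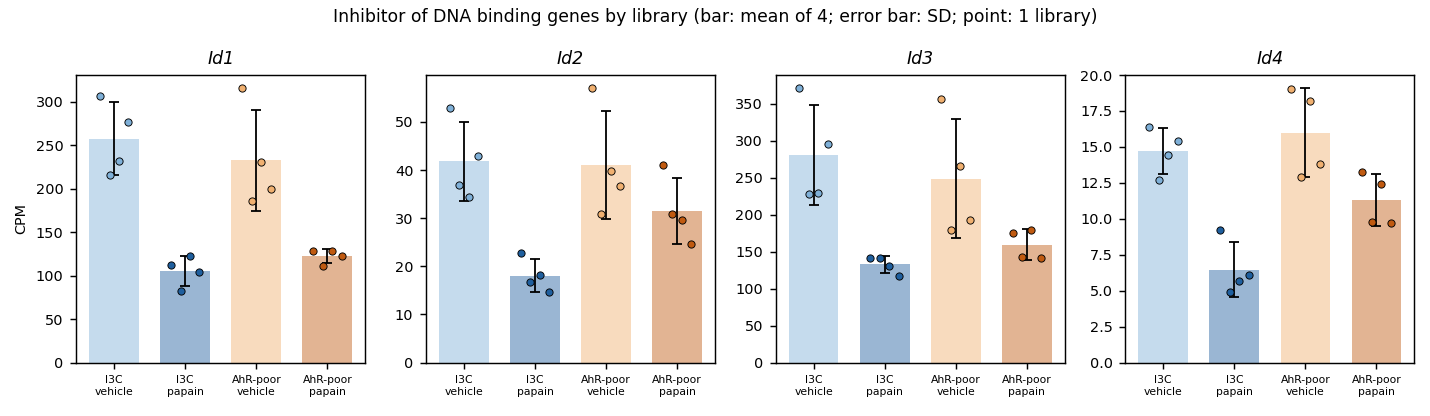
CPM of Id1, Id2, Id3 and Id4 in 16 libraries, with bars for the mean of 4 libraries, error bars for the SD and points for single libraries. With papain on the I3C diet Id2 lies at 14.6 to 22.7 CPM, below all other libraries, which start at 24.6 CPM.

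Runx3 (chr4:135120652-135177990), which acts downstream of TGF-β in Langerhans cells and is also active in T cells, was at 2.58, 4.18, 2.99 and 3.30 CPM with vehicle and 7.26, 3.88, 3.596 and 2.76 CPM with papain on the I3C diet. AhR-poor libraries held 5.58, 6.94, 5.74 and 5.87 CPM with vehicle and 10.2, 15.2, 11.1 and 8.40 CPM with papain. After papain it was 2.57-fold higher on the AhR-poor diet (log2 fold change 1.36 ± 0.25, adjusted p = 0.000645). The 4 libraries of that group lay above the other 12, and T106 was the highest of the I3C papain group for Runx3 as it was for Cd207. The call held in 22 of 23 alternatives, the exception being a fit to the 8 papain libraries alone (adjusted p = 0.012). With vehicle the diets did not overlap either, at 0.88 ± 0.25 (adjusted p = 0.0694), which passed the looser threshold without T105, T106 or T115 (adjusted p = 0.00913 to 0.0453). That threshold was also passed among the 8 vehicle libraries alone (0.00847) and in DESeq2 (0.0157). Papain gave 0.90 ± 0.24 on the AhR-poor diet (adjusted p = 0.00757), under the fold threshold except without T112 (1.02, adjusted p = 0.00431), and 0.42 ± 0.25 on the I3C diet (adjusted p = 0.214). Of the 17 partners and relatives, 0 differed between diets with vehicle and 4 were higher on the AhR-poor diet after papain. These were Zeb2 (5.13 ± 0.62), Irf8 (1.55 ± 0.26), Spi1 (1.53 ± 0.24) and Runx2 (1.40 ± 0.26), all genes with known roles in myeloid or lymphoid cells. With papain on the AhR-poor diet, Zeb2 (3.84 ± 0.56), Spi1 (1.84 ± 0.24) and Runx2 (1.07 ± 0.26) rose. In T cell markers the summed level was at 176 to 236 CPM in that group and 78.6 to 188 CPM in the other 3. Most of that sum was Thy1, which averaged 80.5 CPM with vehicle and 157 with papain on the I3C diet, and 69.5 and 165 on the AhR-poor diet. Cd3e, of the same list, averaged 2.60 and 2.63 CPM, and 4.18 and 6.05, in that order.

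Whether papain acted differently on the 2 diets was tested by the interaction of diet and treatment. None of the 10 genes passed the edgeR test at either threshold, where 0.0181% and 0.329% of all tested genes did, and none passed in DESeq2. At an unadjusted edgeR p under 0.05 there were 2, Id2 (0.82 ± 0.28, adjusted p = 0.244) and Cdh1 (-0.32 ± 0.15, adjusted p = 0.351). For Ccr7 the interaction was 0.33 ± 0.53 on the log2 scale, and for Cd207 -0.35 ± 0.48, so that the error was larger than the estimate.

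Genes most like Cd207 across libraries were taken as those with the highest Pearson correlation of log2 CPM over 16 libraries, among 13014 genes of at least 1 CPM on average. Libraries share diet, treatment and cell content, and these values are given as a description. H2-DMa (r = 0.974), Grasp (0.971), Alox5 (0.969), Plxnc1 (0.952) and Mfge8 (0.946) came first. H2-DMa loads peptides onto MHC class II, and Alox5 begins leukotriene synthesis. With group means removed, leaving the spread among libraries of a group, H2-Eb1 (0.970), H2-Aa (0.963), H2-DMb1 (0.957), H2-Ab1 (0.948) and Grasp (0.941) came first, of which all but Grasp belong to MHC class II. On that scale r with Cd207 was 0.873 for Mfge8, 0.826 for Cd83, 0.792 for Runx3, 0.771 for Cd86, 0.710 for Cd40 and 0.690 for Ccr7. It was 0.339 for Id2, 0.084 for Epcam and -0.560 for Cdh1. Pooled over the groups in this way, libraries higher in Cd207 tended to be higher in the maturation genes, Runx3 and Mfge8, and not in Epcam or Cdh1. Cd207 spread more in the I3C groups (SD of log2 CPM 0.48 with vehicle, 0.84 with papain) than in the AhR-poor groups (0.21 and 0.25). The order did not hold for every gene in each group. Library T103 was the highest AhR-poor vehicle library in Cd207, Cd86, Cd40, Cd83 and Mfge8, but not in Ccr7 or Runx3.

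Genes most like Ccr7 were Pgf (r = 0.978), Cd63 (0.974), Mgp (0.967), S100a9 (0.966) and Ccl22 (0.963). With group means removed they were Pgf (0.850), Ccl22 (0.842), 1600020E01Rik (0.837), Rps24-ps3 (0.832) and Znhit6 (0.827). Pgf encodes placental growth factor, and reads on the pseudogene Rps24-ps3 cannot be told apart with certainty from those of its parent gene. Ccl22, from the maturation list, stood among the first 5 on both scales, at 1.35 to 5.37 CPM with vehicle and 5.97 to 31.4 CPM with papain.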

How the data were processed

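Epidermal RNA from 16 mice was sequenced with the TruSeq Stranded mRNA kit. Per the submitters' processing notes, reads were aligned with STAR to mm10, and the authors deposited raw counts per gene and library. The counting tool, annotation and strand setting are not given in the sources used here. Ensembl identifiers were matched to GENCODE M21 (GRCm38), with 224 of 50600 left without a symbol. Groups came from the labels. A minimum of 10 counts over all libraries left 22155 genes, fitted with 1 mean per group in edgeR 4.0.16 (R 4.3.3, TMM factors, robust quasi-likelihood F test), which was tested on simulated data. The SE is the log2 fold change divided by the root of F. Two-sided exact permutation tests compared ratios. Alternatives were RLE factors or library size only, other filters (edgeR's filterByExpr among them), DESeq2 1.42.0, the 8 libraries compared alone, and leaving out each library. The text names the 10 genes and, from gene lists, at most 4 called genes per list and comparison. Other list genes are named where the text says that their values were seen first, or to describe a marker sum. Members and lists were chosen with earlier results of these data known. Replicate codes are not shared between groups, and the sequencing unit of a library (3 were used) is not in the labels. Floors cover counting error only.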

Additional observations from a re-analysis of the deposited data

Results flagged for a closer look

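In each group of 4 libraries, the highest and lowest values of the 10 genes and of the Ccr7 to Cd207 ratio were compared with the range of the group. Of 44 groups, 4 held a library whose gap to the nearest exceeded Dixon's 95% critical value, and chance alone gives about 1 in 20. Cdh1 was at 801 CPM in AhR-poor vehicle library T103, where the next highest was 682. In the same group Cd40 was at 3.06 CPM in T103, with 1.54 next, and Ccr7 was at 1.63 CPM in T100, with 1.14 next. Ccr7 was at 1.77 CPM in I3C papain library T115, where the next lowest was 5.19. T115 also held the lowest Cd207 (6.54 CPM) and the lowest sum of Langerhans cell markers (238 CPM) of its group.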

How the results depend on the processing

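The 10 genes were refitted under each alternative. With vehicle, 2 were called between diets in the fit reported, 0 with RLE factors, 1 with library size only, 1 with a minimum of 1 count in total, 0 with at least 10 counts in every library (which drops Cd40), 4 in DESeq2 and 4 at the looser threshold. The 1 called with a minimum of 1 count was Cd40 (edgeR adjusted p = 0.00782), while the calls of Cd86 (0.0139) and Cd83 (0.0221) were lost. Leaving out 1 library gave 0 to 3, the 3 without T106 or T115. After papain, 3 were called, 6 in DESeq2, 9 at the looser threshold and 3 to 5 with a library left out, the 5 without T112. Papain calls were 1 on the AhR-poor diet (5 at the looser threshold, 1 to 2 with a library left out) and 3 on the I3C diet (5 at the looser threshold). Signs turned for values near 0. For Cdh1 between diets with vehicle the log2 fold change was 0.043 with library size only, 0.011 with at least 10 counts in every library and -0.082 to 0.096 with a library left out, and for Id2 it was 0.029 with library size only and -0.23 to 0.11. With a library left out, papain gave -0.079 to 0.046 for Cdh1 on the AhR-poor diet and -0.16 to 0.22 for Cd83 on the I3C diet. The interaction then spanned -0.58 to 0.16 for Cd207, -0.052 to 0.14 for Epcam, -0.016 to 0.51 for Ccr7, -0.22 to 0.39 for Cd86 and -0.12 to 0.35 for Mfge8, and the log2 ratio of Ccr7 to Cd207 between diets after papain spanned -0.47 to 0.049. The cause was not tested. Over all genes, calls between diets with vehicle went from 352 to 683 at the looser threshold, 58 with at least 10 counts in every library, 601 in DESeq2 and 195, 210, 194 and 209 without T108, T109, T110 and T100. After papain they went from 1605 to 4577 and 561, with papain against vehicle from 1874 to 7394 and 997 (AhR-poor diet) and from 1989 to 7828 (I3C diet) at the looser threshold. The interaction went from 4 to 73 at the looser threshold, 7 with a minimum of 1 count, 10 with library size only, 205 in DESeq2 and 2 to 95 with a library left out (95 without T112, 31 without T106, 15 without T100). No paired analysis was possible because the libraries' codes are not shared between groups. At the depths here, Cd40 and Ccr7 with vehicle on the I3C diet rest on 9 to 39 counts a library.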
